A study of Mus musculus with 2 samples.

Results

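The genes described here encode the voltage-gated sodium and calcium channels of the mouse, with their auxiliary subunits. They were taken from the gene tables by symbol: protein-coding genes of the sodium channel families (Scn alpha and beta genes) and of the calcium channel families (Cacna1, Cacna2d, Cacnb and Cacng). The rule found 40 genes among the 21474 that the GENCODE M21 annotation calls protein-coding, out of 43346 mouse genes in the tables. RNA came from B6NCrl mouse forebrain, dissected whole at embryonic day 12.5 from male and female embryos mixed together, and no treatment or engineered allele in the labels. Replicate 1 was a pool of 120 embryos and replicate 2 a pool of 68 embryos, so a value is an average over many animals and over every cell type in the dissected tissue. Each library was made as total RNA-seq from 10 ng of RNA longer than 200 nucleotides. The study has 1 group of 2 pools, so no comparison between conditions exists, and levels were compared between subunits and between the pools.

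A voltage-gated sodium channel is built on 1 large alpha subunit that forms the pore, accompanied by small beta subunits that adjust gating and act in cell adhesion. A high-voltage-activated calcium channel has a pore-forming alpha1 subunit, an intracellular beta subunit that brings it to the membrane and an extracellular alpha2delta subunit that raises its surface level. T-type calcium channels open at lower voltage and work without these partners. Most Cacng genes encode transmembrane AMPA receptor regulatory proteins (TARPs), which are classed with the channels by sequence. In the brain sodium channels carry the action potential, and calcium channels couple voltage to transmitter release, firing pattern and gene expression. In embryonic neurons Scn3a is known as the prevailing sodium channel alpha gene, and Scn1a, Scn2a and Scn8a are known to take over with maturation.

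The libraries held 33711030 (replicate 1) and 34578499 (replicate 2) expected counts, and the 40 channel genes together took 20343 and 21764 of them. Their summed level was 247 and 256 TPM, an abundance scaled for library depth and transcript length that can therefore be compared between genes. All 8 neuron markers and all 8 radial glia markers listed for the check of the tissue were at 1 TPM or more in both pools, led by Tubb3 at 710 TPM and Vim at 914 TPM. The summed levels of 6 erythroid markers were 6342 and 8622 TPM in the same order of pools, the widest gap between the pools in absolute TPM among the marker lists. In bulk RNA, fewer cells that express a gene and less RNA per cell cannot be told apart.

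Several of these genes have pairs of exons of equal length that replace each other between the same neighbouring exons. In sodium channel alpha genes such a pair, of 92 bases, encodes part of the voltage sensor of the first repeat, and the copies are usually called neonatal (upstream) and adult (downstream). In Cacna1c, an L-type calcium channel gene, a pair of 104 bases encodes the last membrane segment of the first repeat in either of 2 forms. The search for these exon pairs was chosen after the transcript values had been seen. The sequences of the Cacna1c pair are shown because its transcripts divide by the copy they carry. They are exons of the GENCODE M21 transcripts on GRCm38, printed on the gene's strand, 5′ to 3′, with capitals at the 32 bases that differ, and are 69.2% identical.
Cacna1c upstream exon, chr6:118742265-118742368, minus strand: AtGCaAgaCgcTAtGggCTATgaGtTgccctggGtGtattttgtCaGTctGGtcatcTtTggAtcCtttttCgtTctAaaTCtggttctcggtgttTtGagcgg
Cacna1c downstream exon, chr6:118741871-118741974, minus strand: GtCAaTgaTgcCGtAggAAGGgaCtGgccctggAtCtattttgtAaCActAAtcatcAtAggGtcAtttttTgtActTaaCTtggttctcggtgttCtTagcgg

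Of the 40 genes, 26 were at 1 TPM or more in both pools, which is 65.0% against 60.0% of all protein-coding genes. A further 12 were under 1 TPM in both pools, and the other 2, among them Cacng5, lay on either side of that level. The median over the 40 genes was 2.40 TPM, below the 4.60 TPM over all protein-coding genes. At least 1 count was assigned in both pools to 37 of the 40, a share not computed over all protein-coding genes. Levels ran from 0.01 TPM for Scn7a to 56.5 TPM for Cacnb3, and 1 gene held most of the level in every class but the calcium channel alpha1 genes, as the plot of gene levels shows.

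**Figure D1:**
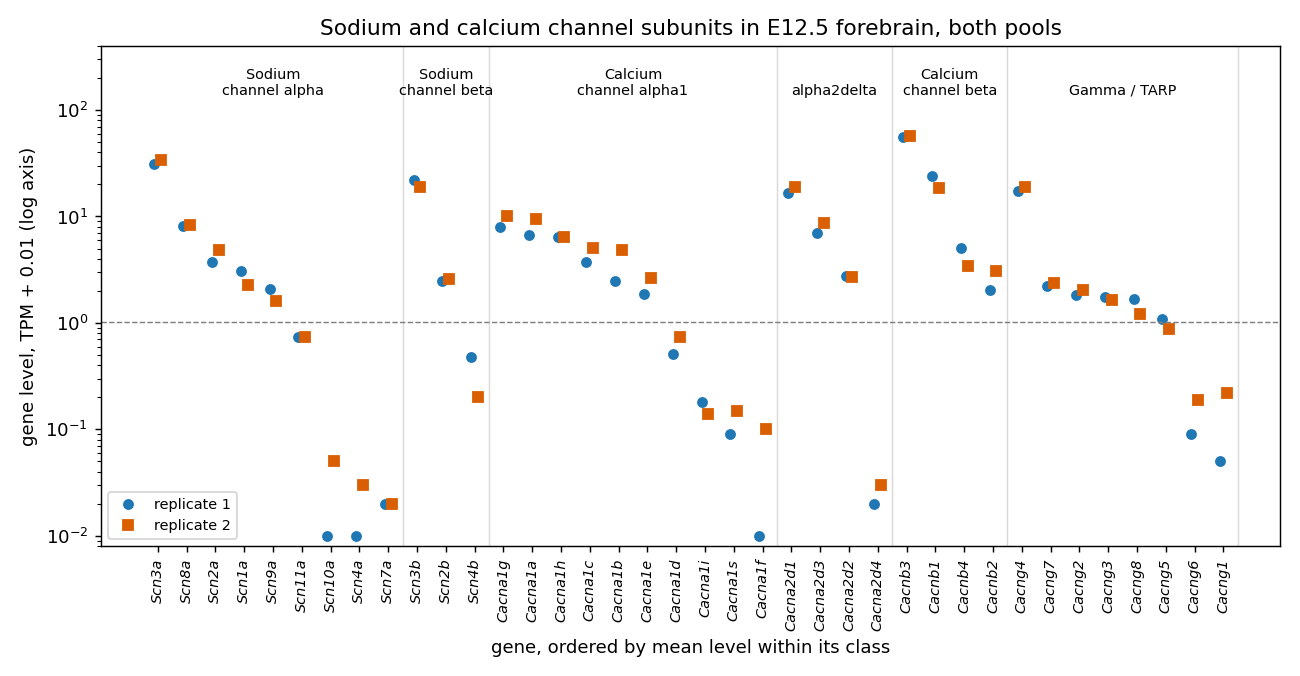
Gene levels of 38 of the channel subunits in TPM plus 0.01 on a log axis, with replicate 1 as circles and replicate 2 as squares, grouped by class and ordered by mean. The dashed line marks 1 TPM. Scn3a, Scn3b, Cacna2d1, Cacnb3 and Cacng4 stand clear above the rest of their classes, and the calcium channel alpha1 genes form a graded series.

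Among the pore-forming sodium channel genes, Scn3a was at 31.2 TPM in the larger pool (replicate 1) and 33.6 TPM in the smaller one. It held 61.2% ± 1.40 (SD, n = 2) of the summed TPM of the 10 alpha genes. Scn8a followed at 8.09 and 8.24 TPM, and Scn2a at 3.71 and 4.88 TPM. Both are the alpha genes of mature axons, and both stayed below Scn3a in each pool. Scn1a, known from fast-spiking interneurons, was at 3.05 and 2.25 TPM. Scn9a, an alpha gene of peripheral sensory neurons, was at 2.07 and 1.59 TPM, and Scn11a, also of sensory neurons, at 0.72 TPM in each pool.

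Scn10a, Scn4a and Scn7a lay near 0. Scn10a, of nociceptors, was listed at 0 in replicate 1, where 3 counts would be 0.0236 TPM, and at 0.04 TPM in replicate 2. Scn4a, of skeletal muscle, was listed at 0 and 0.02 TPM, with a limit of 0.0435 TPM for 3 counts in replicate 1. Scn7a, a channel-like gene of glia and other salt-sensing cells, was at 0.01 TPM in each pool on 2 and 1 counts.

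Levels of neighbouring genes were called different where log2(TPM + 1) was higher in both pools and the mean difference was larger than either gene's difference between the pools. This rule sets a difference against the spread of 2 pools and is no significance test, since genes of equal level can meet it by chance. By it 6 of 9 neighbours in the order of alpha genes were apart. Scn3a exceeded Scn8a by 1.86 and Scn2a by 2.66 on the log2(TPM + 1) scale, in both pools, and Scn8a exceeded Scn1a by 1.34. Scn2a exceeded Scn1a by 0.22 in replicate 1 and 0.86 in replicate 2, and the deposited TPM intervals of this pair were not apart in both pools.

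The sodium channel alpha genes also share position. Scn3a, Scn2a, Scn1a, Scn9a and Scn7a lie on chromosome 2 between 65457118 and 66784914 (GRCm38). Scn10a and Scn11a lie on chromosome 9 between 119608456 and 119825456. Levels within a cluster were unequal: the chromosome 2 genes ran from 0.01 to 32.4 TPM and Scn10a and Scn11a had means of 0.02 and 0.72 TPM. Scn8a lies on chromosome 15 and Scn4a on chromosome 11.

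Gene levels of the largest alpha genes depended on which annotated transcripts are counted. Scn3a had 4 transcripts with TPM above 0. Scn3a-202, of 8550 bases, held 47.8% of the gene's TPM in replicate 1 and 43.4% in replicate 2, and Scn3a-201, of 9560 bases, held 10.6% and 10.3%. Scn3a-203 is a fragment of 365 bases whose annotated coding sequence lacks its start and end, and it held 39.9% and 45.8%. It did so on 66.7 and 85.8 expected counts, which are 2.04% and 2.55% of the gene's counts, because TPM divides by length.

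In Scn8a the transcript with the largest share was also short. Scn8a-202, of 1072 bases with a coding sequence of 306 bases, held 65.1% and 62.6% of the TPM on 103 and 105 expected counts. The full-length Scn8a-201, of 11293 bases, held 29.3% and 26.7% on 535 and 517 counts. Both pools gave the short transcript the larger share by TPM and the long one by counts.

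Levels were therefore also computed from complete coding transcripts alone: those that M21 calls protein-coding, with no missing coding end, and with a coding sequence of at least 50% of the longest in the gene. This definition was chosen after the short transcripts of Scn3a and Scn8a had been seen. By it Scn3a was at 18.2 and 18.0 TPM and again highest of its class, at 59.9% of the summed level. Scn8a was at 2.82 and 3.08 TPM, beside Scn2a at 2.96 and 3.32 TPM, and the 2 genes were no longer separated by the rule. Scn1a was at 1.22 and 1.37 TPM and Scn9a at 1.41 and 1.01 TPM.

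Shares of the other alpha transcripts varied between pools. Scn2a-201 held 47.3% of Scn2a TPM in replicate 1 and 67.6% in replicate 2, while Scn2a-202, with a coding sequence of the same 6018 bases, held 32.7% and 0.43%. Posterior means, which the authors deposited as a second estimate, gave 41.7% and 49.9% for Scn2a-201 and 31.0% and 13.6% for Scn2a-202. The deposited TPM intervals of Scn2a-202 overlapped, at 0.016 to 2.05 and 1.77e-05 to 1.69, so its low share in replicate 2 is uncertain. A retained-intron transcript, Scn2a-203, held 20.1% and 20.6%. In Scn1a the full-length Scn1a-203 held 36.1% and 37.8%, whereas the 660-base Scn1a-206 held 46.5% in replicate 1 and 6.94% in replicate 2. The retained-intron Scn1a-205 held 13.4% and 32.1%, and Scn1a-201 held 3.89% and 20.5%. Scn9a-202 held 53.4% and 51.3% of Scn9a, beside the retained-intron Scn9a-204 at 25.4% and 36.9%.

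The 92-base exon pairs divide these transcripts. In Scn8a, transcripts with the upstream copy made up 84.0% of the TPM that could be assigned to either copy in replicate 1 and 75.6% in replicate 2, on 535 against 101 and 517 against 166 expected counts. These values leave out Scn8a transcripts whose length differs between the authors' annotation and M21. With those allowed, the share was 84.0% and 71.4%, on 517 against 204 counts in replicate 2. In Scn9a, transcripts with the upstream copy made up 85.8% and 96.0%, and the downstream side rested on 30.4 and 6.57 counts. In both genes the upstream copy held the larger share in each pool. How reads that fit more than 1 of these paralogs were divided was not tested, so the exon values of the sodium channel genes are uncertain.

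Scn3a differed from them. Transcripts with its upstream copy made up 40.6% and 46.0% of TPM, and the only one was the 365-base Scn3a-203, so the share sets 66.7 and 85.8 counts on a fragment against 3164 and 3270 counts on full-length transcripts. The Scn3a pair therefore compares transcript models of very unequal length. The Scn2a pair entered only when transcripts whose length differs between the authors' annotation and M21 were allowed, and its downstream transcript was listed at 0 in replicate 1 and at 0.55 TPM in replicate 2. These shares come from the deposited transcript estimates, which use all parts in which the transcripts differ and not reads over the exon alone.

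**Figure D2:**
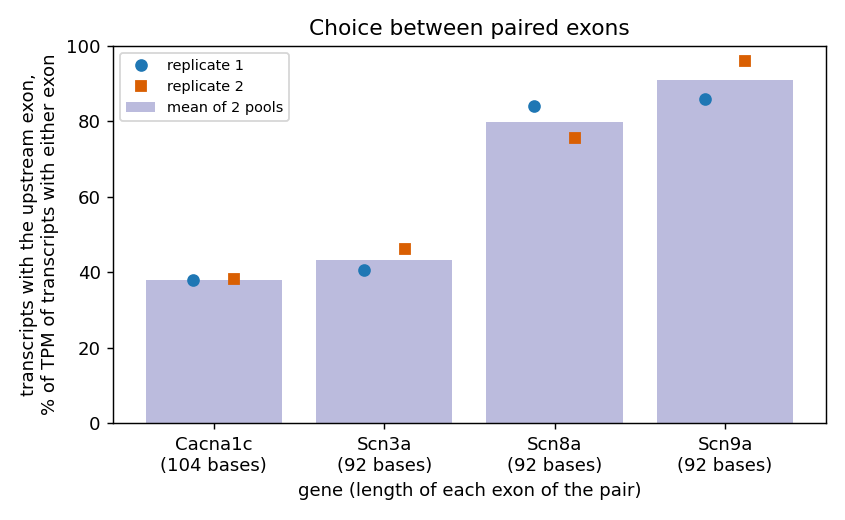
Transcripts that carry the upstream copy of an exon pair, as a percent of the TPM of transcripts with either copy, for 4 genes with TPM on both sides. Bars are means of the 2 pools, circles replicate 1 and squares replicate 2, and lengths are those of each exon. Only transcripts of the same length in the authors' annotation and M21 were counted. Shares come from estimates of whole transcripts and not from reads over the exons alone. Every point of Scn8a and Scn9a is at 75.6% or more, and every point of Scn3a and Cacna1c lies between 38.0% and 46.0%.

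The sodium channel beta genes were led by Scn3b (chromosome 9, 40269217 to 40291618), at 22.2 and 18.9 TPM, which held 84.4% ± 0.82 (SD, n = 2) of the class. Scn2b was at 2.45 and 2.56 TPM and Scn4b at 0.47 and 0.19 TPM. The Scn3b protein binds the alpha subunit without a covalent bond, and the Scn2b and Scn4b proteins do so through a disulfide bond. All 3 neighbours in the order of the 4 beta genes were apart by the rule. Scn3b exceeded Scn2b by 2.62 and Scn4b by 4.02 on the log2(TPM + 1) scale, the latter 5.66 with a pseudocount of 0.1.

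Scn3b-201 held 44.6% and 55.5% of Scn3b TPM and Scn3b-203 held 24.8% and 20.9%, and both encode a coding sequence of 645 bases. The retained-intron Scn3b-204 held 11.8% and 15.3%. Scn2b-201 held 94.5% and 97.5% of Scn2b. Scn2b and Scn4b lie side by side on chromosome 9, between 45117782 and 45154152, and Scn2b was the higher of the 2 in both pools.

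The 10 calcium channel alpha1 genes showed no single leader. Cacna1g, a T-type gene on chromosome 11 at 94408391 to 94474198, was at 7.96 and 10.2 TPM and held 26.2% ± 0.66 (SD, n = 2) of the class. Cacna1a, the P/Q-type gene of presynaptic terminals, was at 6.67 and 9.41 TPM. Cacna1h, another T-type gene, was at 6.47 and 6.36 TPM. Cacna1c, the main L-type gene of brain and heart, was at 3.73 and 5.07 TPM. Cacna1b, the N-type gene, was at 2.48 and 4.83 TPM, and Cacna1e, the R-type gene, at 1.84 and 2.62 TPM. By the rule only 3 of 9 neighbours were apart, and Cacna1g, Cacna1a and Cacna1h could not be ordered as neighbours.

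The remaining alpha1 genes were low. Cacna1d, the L-type gene of pacemaking cells, was at 0.50 and 0.72 TPM, a difference of -1.74 from Cacna1c in log2(TPM + 1). Cacna1i, the last T-type gene, was at 0.17 and 0.13 TPM, and Cacna1g exceeded it by 3.12 on the log2(TPM + 1) scale. Differences from such low genes depend on the pseudocount, and with 0.1 in place of 1 this one was 5.19. Cacna1s, of skeletal muscle, was at 0.08 and 0.14 TPM with none of it in a complete coding transcript. Cacna1f, of the retina, was listed at 0 in replicate 1 and rested on 1 count in replicate 2, at 0.09 TPM.

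The order within the Cav2 genes reversed with the transcripts counted. At gene level the difference from Cacna1a in log2(TPM + 1) was -0.99 for Cacna1b and -1.48 for Cacna1e, below 0 in both pools. With complete coding transcripts Cacna1b was at 2.34 and 2.68 TPM against 1.26 and 1.57 TPM for Cacna1a, so that it was higher by 0.54, and with all coding transcripts by 0.82. Cacna1a then exceeded Cacna1e by 0.12, which did not pass the rule. At gene level the level of Cacna1a included its noncoding transcripts.

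The noncoding transcripts of Cacna1a carried most of its level. Cacna1a-201, of 7926 bases, took 67.2% and 62.1% of the gene's counts and 18.9% and 16.6% of its TPM. It was the only transcript with a complete coding sequence at 10% or more. The retained-intron transcripts Cacna1a-203, Cacna1a-206, Cacna1a-207 and Cacna1a-208 held 13.8%, 16.3%, 16.4% and 10.3% on average, and the processed transcript Cacna1a-204 held 12.1%. The 4 retained-intron models are 597 to 1153 bases long.

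Deposited transcript shares of Cacna1b differed between pools. Cacna1b-204, of 9736 bases, held 66.7% of its TPM in replicate 1 and 27.4% in replicate 2, the largest gap between pools among the highest transcripts of the 26 genes. By posterior means its shares were closer, at 38.9% and 22.75%. Its own TPM was 1.65 and 1.32, with overlapping deposited intervals of 0.41 to 2.22 and 0.53 to 1.99. Cacna1b-202, of 9655 bases, held 21.3% and 26.0%. The incomplete Cacna1b-208, of 523 bases, was listed at 0 in replicate 1 and at 1.49 TPM in replicate 2, on 13.2 counts. In complete coding transcripts the gene differed between pools by 2.34 against 2.68 TPM, and at gene level by 2.48 against 4.83 TPM.

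The T-type pair was also sensitive. The difference of Cacna1h from Cacna1g in log2(TPM + 1) was -0.43 at gene level, 0.25 with coding transcripts and 0.032 with complete coding transcripts, the last within the pool spread. In complete coding transcripts Cacna1h was at 4.97 and 4.30 TPM and Cacna1g at 4.07 and 4.97 TPM, so each was the higher in 1 pool. The highest transcript of Cacna1g was a processed transcript of 434 bases, Cacna1g-213, at 22.9% and 24.0% of TPM on 12.3 and 17.1 counts. The 8035-base Cacna1g-208 held 16.2% and 30.6%, and the 7984-base Cacna1g-205 held 23.4% and 3.35%. By posterior means the shares were 9.29% and 17.9% for Cacna1g-208 and 18.0% and 9.38% for Cacna1g-205. Processed transcripts Cacna1g-214 and Cacna1g-215 held 11.3% and 12.9% on average. Cacna1h-205, of 8230 bases, held 76.8% and 67.6% of Cacna1h (53.1% and 37.9% by the posterior means that the authors deposited as a second estimate), beside the 551-base Cacna1h-206 at 14.3% and the retained-intron Cacna1h-203 at 12.6% on average.

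In Cacna1c the highest complete coding transcripts carry different copies of the 104-base exon pair. Cacna1c-216, with the downstream copy, held 29.5% and 26.7% of TPM, and Cacna1c-207, with the upstream copy, held 19.1% and 17.8%. Over all transcripts with either copy, those with the upstream one made up 38.0% in replicate 1 and 38.1% in replicate 2. On the upstream side only Cacna1c-207 had TPM above 0. The share therefore depends on all parts in which these transcripts differ and not on reads over the exon alone. Expected counts gave the other order, with 187 against 170 and 247 against 222 counts, since Cacna1c-207 is 13162 bases long and Cacna1c-216 only 7338. Processed transcripts Cacna1c-223 and Cacna1c-218 held 23.8% and 16.5% on average, and complete coding transcripts together held 48.0% of the gene's TPM. Cacna1e-203, of 14921 bases, held 65.5% and 47.5% of Cacna1e, and the retained-intron Cacna1e-204 held 23.1% and 27.9%.

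Pairs of 97 bases were found in Cacna1a and Cacna1b, 1 of 12 bases in Cacna1e and 1 of 20 bases in Cacnb4. In Cacna1a the transcripts with the upstream copy held all of the assignable TPM in replicate 1 and 90.2% in replicate 2. The downstream side there rested on 1.6 counts of the noncoding 549-base Cacna1a-210. In Cacna1b, Cacna1e and Cacnb4 the upstream copy was listed at 0 TPM in both pools. In Cacna1b only the incomplete 332-base Cacna1b-210 carried it, and posterior means gave it 8.4% and 7.69% of the pair. Among transcripts of the same length in the authors' annotation and M21, 9 pairs were found in 9 genes, and 5 had TPM on both sides in both pools. With transcripts of any length there were 11 pairs in 11 genes, again 5 with TPM on both sides. The pairs added were that of Scn2a and 1 of 104 bases in Cacna1d. In Cacna1d the upstream copy made up 28% of TPM in replicate 1 and 0% in replicate 2.

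Among the alpha2delta genes, Cacna2d1 (chromosome 5, 15934691 to 16374511) was at 16.6 and 19.0 TPM and held 62.7% ± 0.36 (SD, n = 2) of the class. Its protein is the receptor of gabapentin, as is that of Cacna2d2. Cacna2d3 was at 7.02 and 8.72 TPM, Cacna2d2 at 2.77 and 2.70 TPM, and Cacna2d4, a retinal gene, at 0.01 and 0.02 TPM on 1 and 2 counts. All 3 neighbours were apart, with Cacna2d1 above Cacna2d3 by 1.09 and above Cacna2d2 by 2.33. Cacna2d3 had a single transcript with TPM above 0, Cacna2d3-201. Cacna2d1-203 held 69.3% and 72.6% of Cacna2d1, with Cacna2d1-204 at 15.2% and Cacna2d1-202 at 10.4% on average. Cacna2d2-208 held 49.5% and 46.8% (31.6% and 30.2% by posterior means), beside the retained-intron Cacna2d2-210 at 26.1% and Cacna2d2-205 at 13.8%. The order of these genes was the same with complete coding transcripts.

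The calcium channel beta genes had the highest summed level of the 6 classes, 84.5 ± 3.47 TPM (SD, n = 2). Cacnb3, at 55.9 and 57.1 TPM, was the most abundant of the 40 genes and exceeded 85.7% of protein-coding genes. It lies on chromosome 15 at 98630840 to 98644529 (GRCm38, plus strand). Cacnb1, the beta gene also used in skeletal muscle, was at 24.0 and 18.4 TPM. Cacnb4, whose loss causes the lethargic mouse, was at 5.04 and 3.42 TPM, and Cacnb2, the main beta gene of the heart, at 2.04 and 3.06 TPM. Cacnb3 exceeded Cacnb1 by 1.39 and Cacnb4 by 3.48, and Cacnb1 exceeded Cacnb2 by 2.65 on the log2(TPM + 1) scale. Cacnb4 was above Cacnb2 by more than the pool spread, although the gap in replicate 2 was only 3.42 against 3.06 TPM.

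Cacnb3 was carried by coding transcripts alone, with Cacnb3-202 at 84.4% and 85.0% and Cacnb3-201 at 15.6% and 15.0%. Cacnb1-201 held 81.9% and 80.0% of Cacnb1. Cacnb4-202 held 50.2% and 48.3% and Cacnb4-203 held 19.2% and 34.2%, while the 208-base processed transcript Cacnb4-205 held 27.1% and 12.8% on 3 and 1 counts. Cacnb2 had the smallest complete coding share of the 26 genes, 10.2%. The retained-intron transcript Cacnb2-204, of 3457 bases, held 50.8% and 41.7%, Cacnb2-213 held 11.9% on average, and the coding Cacnb2-203 held 11.4% and 9.25%. In complete coding transcripts Cacnb2 was at 0.23 and 0.28 TPM.

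Among the Cacng genes, Cacng4 was at 17.3 and 18.8 TPM and held 67.8% ± 1.61 (SD, n = 2) of the class. Cacng4, Cacng2 (stargazin), Cacng3 and Cacng8 encode the type I TARPs, and Cacng5 and Cacng7 the type II TARPs. Cacng7 was at 2.21 and 2.37 TPM, Cacng2 at 1.83 and 2.05 TPM, Cacng3 at 1.74 and 1.62 TPM, and Cacng8 at 1.68 and 1.19 TPM. Cacng5 was at 1.07 and 0.87 TPM. Cacng4 exceeded Cacng2 by 2.69, Cacng8 by 2.97 and Cacng3 by 2.83, and Cacng7 exceeded Cacng5 by 0.74. Cacng3 and Cacng8 were not apart.

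Cacng1, the gamma subunit of the skeletal muscle calcium channel, was at 0.04 and 0.21 TPM, and Cacng6, its closest relative, at 0.08 and 0.18 TPM. Cacng1, Cacng4 and Cacng5 lie together on chromosome 11 between 107703218 and 107915055, with means of 0.13, 18.0 and 0.97 TPM. Cacng6, Cacng7 and Cacng8 lie together on chromosome 7 between 3332955 and 3435667, with means of 0.13, 2.29 and 1.44 TPM. Some genes of this class had a single main transcript: Cacng2-201, Cacng7-201 and Cacng8-202 held all of their genes' TPM, and Cacng4-201 held 98.9%. Cacng3 was split, with Cacng3-201 at 52.2% and 52.3% and the incomplete 765-base Cacng3-203 at 47.8% and 34.8%. Cacng5-201 held 100% and 67.0% of Cacng5 (69.1% and 63.9% by posterior means), with the rest of replicate 2 in Cacng5-202.

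Over the 26 genes at 1 TPM or more, the highest transcript held a median of 57.0% of TPM, and more than 90% in 6 genes. It was under 50% in 9 genes, and in 3 genes (Scn8a, Cacna1g and Cacnb2) it was no complete coding transcript. These values of the highest transcript were not computed over all protein-coding genes, so whether they are usual is not known. The median complete coding share was 74.4%, against 94.2% over all protein-coding genes at that level. It was under 50% in both pools in 4 of the 26 genes, Scn8a, Cacna1a, Cacna1c and Cacnb2, or 15.4%, against 13.0% of protein-coding genes. The count of such genes is thus near the background, and the lower median describes the channel genes without a test.

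**Figure D3:**
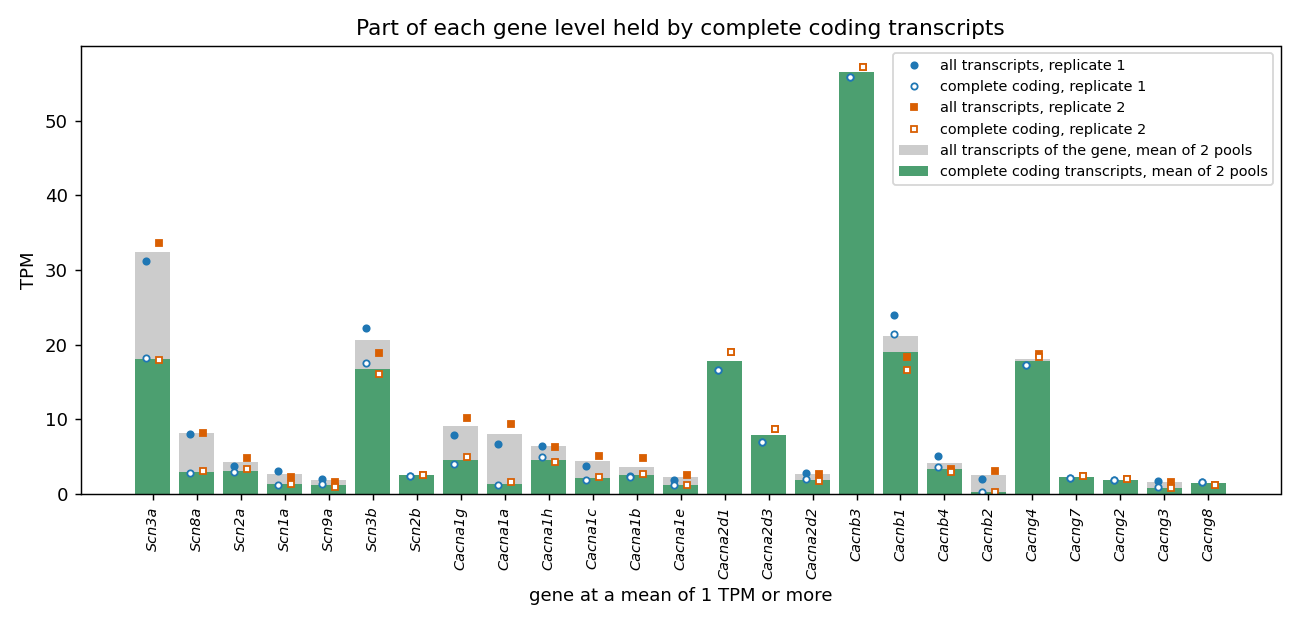
Gene level in TPM of 25 channel genes at a mean of 1 TPM or more (grey bars, filled points) and the part held by complete coding transcripts (green bars, open points). Bars are means of the 2 pools and points are the pools. Scn3a, Scn8a, Cacna1a and Cacnb2 lose large parts of their bars, while Cacnb3, Cacna2d1, Cacna2d3 and Cacng4 lose almost none.

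The 22 pairs of paralogs chosen for comparison were all apart by the rule at gene level, 17 with the first-named gene higher and 5 with the second higher. The pairs were chosen with earlier results of these data known, so this count is no independent result. The share over other gene pairs was not computed. Of the pairs named above, the direction of Cacna1b to Cacna1a and of Cacna1h to Cacna1g reversed with coding transcripts. The difference of Cacna1e from Cacna1a was lost with them, and that of Scn2a from Scn1a was lost when deposited intervals had to be apart. The difference of Cacna1h from Cacna1g also lost its call with posterior mean TPM, at -0.25, and with intervals. The number of pairs apart was 20 to 22 over the other settings. In the order of all neighbours, 23 of 34 were apart.

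The pools showed little common shift over these genes. The median difference, replicate 2 minus replicate 1 in log2(TPM + 1), was 0.06 over the 26 genes. It was 0.01 over all protein-coding genes at that level. Gains and losses cancel in this signed median, so it does not measure how far single genes differed. Over the 26 genes the differences ran from -0.45 for Cacnb4 to 0.74 for Cacna1b. The summed level of the calcium channel alpha1 genes was 29.9 TPM in replicate 1 and 39.5 TPM in replicate 2. That of the calcium channel beta genes went the other way, at 86.9 and 82.0 TPM. Of the 26 genes, 16 were higher and 10 lower in replicate 2, against 6761 higher and 6292 lower of the 13092 protein-coding genes. Intervals of TPM that the authors deposited with each value did not overlap between pools in 3 genes higher in replicate 2, where 7.25% of protein-coding genes were called. They did not overlap in 1 gene lower in replicate 2, where 7.94% were called. The first were Cacna1e at 1.84 and 2.62 TPM, Cacna2d1 at 16.6 and 19.0 TPM and Cacna2d3 at 7.02 and 8.72 TPM. The last was Cacnb1 at 24.0 and 18.4 TPM. In complete coding transcripts Cacna1e was at 1.21 and 1.24 TPM, and with expected counts scaled by TMM, edgeR's trimmed mean of M-values, its log2 difference was 0.17 in place of 0.35. The total of 4 in 26 genes, or 15.4%, is close to the 15.2% of protein-coding genes with intervals apart in either direction. For 7 of the 40 genes (Scn4a, Scn10a, Cacna1b, Cacna1f, Cacna1i, Cacna2d4 and Cacnb2) the deposited TPM lay outside its own interval in a pool. Of these, Cacna1b and Cacnb2 were above 1 TPM in both pools, so this was not confined to genes near 0. The same share over all protein-coding genes was not computed.

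**Figure D4:**
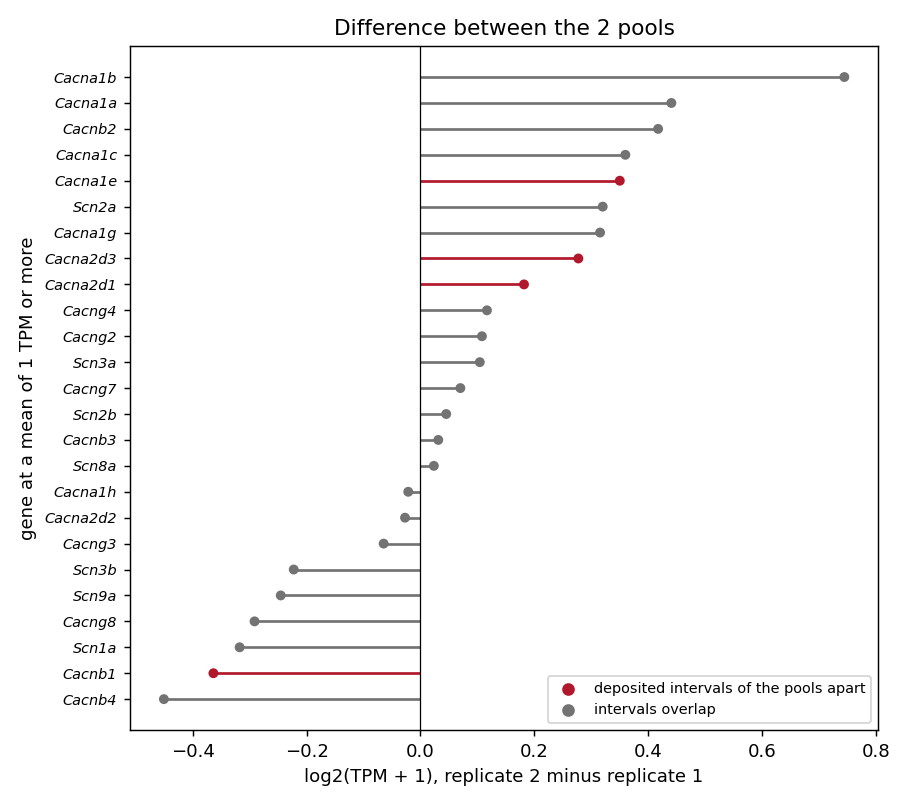
Difference between the pools, replicate 2 minus replicate 1 in log2(TPM + 1), for 25 genes at a mean of 1 TPM or more, ordered by size. Red marks the 4 genes whose deposited intervals do not overlap, Cacna1e, Cacna2d3, Cacna2d1 and Cacnb1. Cacna1b has the longest line, at 0.74, but overlapping intervals, and its difference was 0.24 with counts scaled by TMM. Its deposited TPM lay outside its own interval in replicate 1.

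Genes best known from other tissues were set beside markers of those tissues. The summed level of 10 skeletal muscle markers was 8.92 TPM in the first pool and 18.3 TPM in the second, with 2 of 10 at 1 TPM or more in both pools, and Myf5 and Ckm were lower in the second. Of the channel genes of muscle, Cacng1, Cacna1s and Scn4a were higher in replicate 2, on 1 against 5, 4 against 9.69 and 0 against 3 counts, and Cacnb1 was lower. Myod1, a defining gene, was listed at 0 in replicate 1 and at 0.27 TPM in replicate 2. The part of muscle RNA in these values was not tested. For Cacnb2 and Cacna1c, which the heart also uses, 6 heart markers summed to 6.11 and 5.83 TPM, with 3 at 1 TPM or more and Nkx2-5 at 0.07 and 0.03 TPM.

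For Scn9a, Scn10a and Scn11a, 10 sensory ganglion markers summed to 69.0 and 63.9 TPM, of which Isl1, a gene also of the ventral forebrain, made up 61.1 and 54.1 TPM. Of this list 4 genes were at 1 TPM or more in both pools. Beside Isl1 these were Pou4f1 at 1.83 and 3.93 TPM, P2rx3 at 1.19 and 1.34 TPM and Runx1 at 1.82 and 2.13 TPM. Avil was at 0.17 and 0.03 TPM, and Tlx3 at 0 and 0.27 TPM. For Cacna1f and Cacna2d4, 8 retinal markers summed to 61.3 and 57.8 TPM, nearly all of it Otx2 and Rlbp1, and Crx was listed at 0 in both pools. For Cacna1c and Cacna1h, which vascular smooth muscle also uses, 8 mural markers summed to 71.1 and 96.6 TPM, with Acta2 at 21.2 and 39.6 TPM. Neural crest glia markers summed to 11.3 and 12.3 TPM, with 3 of 6 detected. The 6 endothelial and 6 microglial markers were all detected. The part of any of these cells in the channel levels was not tested.

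Partners of the channels were described from a list of 45 genes for the complexes, their trafficking and the axon initial segment, 1 of which was entered under an old and a new symbol. Of the 45, 39 reached 1 TPM in each pool, where 60.0% of all protein-coding genes did. The list's median was 11.0 TPM against 4.60 TPM over all protein-coding genes. Among the 3 highest were Calm2, a calmodulin gene, at 1022 TPM and Nedd4, which encodes a ubiquitin ligase, at 619 TPM. None was listed at 0 in both pools. Among others, picked after their values were seen, Ank3, the ankyrin that holds sodium channels at the axon initial segment, was at 51.9 and 54.7 TPM. Sptbn4, the spectrin of the same site, was at 1.04 and 0.39 TPM. Fgf13, an intracellular sodium channel modulator, was at 52.3 and 45.4 TPM, above Scn3a in both pools.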

How the data were processed

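Forebrain RNA of 2 pools was measured, both in 1 group (e12.5 forebrain, replicates by the labels' biological replicate number). The authors deposited gene and transcript tables for each library with expected counts, TPM and FPKM, transcript percent of the gene's TPM (IsoPct) and posterior mean estimates with interval bounds whose level is not stated. Each table was made from that library's own transcriptome alignments against mm10 with GENCODE M4, per the text deposited with the tables, with aligner and quantifier not given in the sources used here. Deposited FPKM served only as an alternative. TPM, expected counts and percent values were taken as deposited, with no refit.

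Symbols, classes, exons and sequences came from GENCODE M21 (GRCm38). Of 223 channel transcripts, 220 were in M21 and 201 had the same length there. Levels were compared on log2(TPM + 1), with a pseudocount of 1 and detection at 1 TPM. With 2 pools no test across genes was made, and floors of 3 counts cover counting error only. Named were every channel gene, the highest transcript of each gene at a mean of 1 TPM or more with others at a mean of 10% or more, and the 3 highest genes of the partner list. The genes, pairs and lists were chosen with earlier results of these data known, and complete coding transcripts and exon pairs were added after transcript values had been seen. Certain genes and exon sequences that this naming rule would include are not reported here, although counts and class totals include every gene.

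Alternatives used posterior means, expected counts, coding transcripts, scaling by edgeR 4.0.16 (TMM) and DESeq2 1.42.0 size factors, other thresholds and single pools. Tools were Python 3.11.15, pandas 2.3.3 and R 4.3.3.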

Additional observations from a re-analysis of the deposited data

How the results depend on the processing

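Class shares, exon shares and medians that moved by more than the SD between the pools are given here, with the detected count that changed most. The cause was not tested. At a threshold of 5 TPM, 11 of the 40 genes were detected in both pools in place of 26. The share over all protein-coding genes at that threshold was not computed. With expected counts, where long transcripts weigh more, the class shares were 57.5% for Scn3a, 85.3% for Scn3b, 22.3% for Cacna1g, 74.8% for Cacna2d1, 60.9% for Cacnb3 and 71.0% for Cacng4, and the median of the highest transcripts was 77.5%. With coding transcripts only the shares were 63.5% for Scn3a, 23.7% for Cacna1g, 64.5% for Cacna2d1 and 71.5% for Cacnb3. Complete coding transcripts, an alternative chosen after seeing the data, gave 64.5% for Cacna2d1, 71.5% for Cacnb3 and 69.6% for Cacng4. Posterior means gave 23.6% for Cacna1g, 59.7% for Cacna2d1, 46.3% for the median highest transcript and 40.9% for the Cacna1c upstream exon. In log2(TPM + 1), the difference of Cacna1b from Cacna1a reversed to 0.82 with coding and 0.54 with complete coding transcripts. That of Cacna1h from Cacna1g reversed to 0.25 and 0.032.

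In single pools the number detected was 26 to 28. Single-pool shares were 60.3% to 62.2% for Scn3a, 83.8% to 84.9% for Scn3b, 25.7% to 26.6% for Cacna1g, 62.4% to 62.9% for Cacna2d1, 64.3% to 69.7% for Cacnb3 and 66.6% to 68.9% for Cacng4. The median highest transcript was 59.0% to 65.3%. Upstream exon shares were 38.0% to 38.1% for Cacna1c, 40.6% to 46.0% for Scn3a, 75.6% to 84.0% for Scn8a and 85.8% to 96.0% for Scn9a. These exon shares used transcripts of the same length in both annotations. Over the pair differences and their settings with both pools, 145 values kept direction and call, 5 lost the call and 4 reversed, of which Cacna1h from Cacna1g at 0.032 was also not called. In single pools 44 differences kept their sign, where no call can be made. Shares of the highest transcripts moved in 15 genes with posterior means and in 17 with expected counts. Of the differences between pools, 10 values moved, all with expected counts, and under TMM the sign turned for Scn1a, from -0.32 to 0.12, and Scn3a, from 0.10 to -0.030. No paired analysis was possible because the series has 1 group.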
